A study of Homo sapiens with 17 samples.

Results

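Replication-dependent histone genes encode the core histones H2A, H2B, H3 and H4 and the linker histone H1, which package new DNA in S phase. The members described here are the protein-coding genes of GENCODE release 29 (GRCh38) whose symbols begin with HIST1H, HIST2H, HIST3H or HIST4H. They number 71 of 19969 protein-coding genes. There are 6 H1, 17 H2A, 18 H2B, 15 H3 and 15 H4 genes. The HIST1 cluster on chromosome 6 holds 55 of them, the HIST2 and HIST3 clusters on chromosome 1 hold 12 and 3, and HIST4H4 lies alone on chromosome 12. A site belongs to a member if it lies on the same strand, inside the gene or within 500 bp past its end.

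The measurements come from time-variant precision run-on sequencing of HEK293, a line derived from human embryonic kidney. Engaged RNA polymerases add labelled nucleotides in permeabilised cells for a set run-on time, and the 3′ end of each nascent RNA marks a polymerase position. Run-on lasted 0.5, 2, 8 or 32 min in 2 buffers, one with sarkosyl, an anionic detergent that removes many chromatin-bound proteins, and one without it. Cells of both buffers carried the same labels otherwise, with no drug named for either. Each buffer has 8 libraries, that is 4 run-on times in 2 replicates, and a further library labelled as Trp treatment was not analysed here. The authors fitted 1 table per buffer and replicate, and each table lists sites with a pausing time whose unit was not stated. Nothing in the labels says whether replicates were separate cultures, so the spread between them may be technical. How many reads support a site cannot be seen, and a position that is not listed may have lacked reads.

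Most of these genes are short, intronless and present in many near-identical copies. Their transcripts carry no poly(A) tail. They end instead just past a conserved stem-loop, which the stem-loop binding protein SLBP recognises, and the U7 snRNP directs the cut a few bases downstream. Of the 71 models, 58 have a single exon and 33 cover the coding sequence only, and the median length is 509 bp.

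The tables held 48566 and 47713 sites with sarkosyl and 66089 and 41769 without it, replicate 1 first. Histone members held 337 and 531 of these with sarkosyl, or 0.694% and 1.11% of the table. Without sarkosyl they held 290 and 184, or 0.439% and 0.441%. The share was higher in both sarkosyl tables than in both sarkosyl-free tables. A site was found in 53, 54, 51 and 45 members, in the same order. That is 74.6%, 76.1%, 71.8% and 63.4% of the members, against 41.8%, 40.7%, 46.6% and 37.9% of the other protein-coding genes. Among 922 other single-exon protein-coding genes the shares were 13.1%, 12.3%, 13.4% and 10.2%. A site was listed in all 4 tables for 44 members and in 1 to 3 tables for 13. The 14 members with no site were HIST1H1A, HIST1H1B, HIST1H1T, HIST1H2AA, HIST1H2BA, HIST1H2BH, HIST1H3C, HIST1H3F, HIST1H3G, HIST1H3I, HIST1H4F, HIST1H4G, HIST1H4L and HIST3H3. Some of these, such as HIST1H1T, HIST1H2AA, HIST1H2BA and HIST3H3, are known as testis forms.

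At the 3′ stem-loop the sites of the 2 buffers lay at different bases. The histone stem-loop consensus was searched on the sense strand of GENCODE transcripts, within 200 bases past the stop codon. It was found in 32 members, namely 7 H2A, 11 H2B, 6 H3 and 8 H4 genes. Of 32 members with a transcript that reaches 60 bases past the stop codon it was found in 31 and not in HIST1H2BJ, and HIST1H4J holds it in a shorter transcript. Among 18683 other genes with transcripts that reach 60 bases it was found in 2 (0.0107%), BTBD10 and H2AFX. The stem-loop has 16 bases and began 23 to 68 bases past the stop codon, with a median of 37. The 7 shown here belong to the genes described next, and hold the 4 forms found in 3 or more genes and the form of HIST1H2AG, found in 1. Capitals mark the stem-loop, and the sequences are sense strand, GRCh38, read from GENCODE transcripts.
HIST1H2BC, chr6:26123458-26123487, minus strand: GGCTCTTTTAAGAGCCacccagatacccac
HIST1H2BD, chr6:26158587-26158616, plus strand: GGCTCTTTTAAGAGCCacgcatgttttcaa
HIST1H2BL, chr6:27807470-27807499, minus strand: GGCTCTTTTCAGAGCCactcactattatct
HIST1H2AG, chr6:27133515-27133544, plus strand: GGCTCTTTTCAGGGCCacccacgtcttctc
HIST2H3C, chr1:149840678-149840707, minus strand: GGCTCTTTTCAGAGCCacccacatcagcac
HIST1H4B, chr6:26026887-26026916, minus strand: GGCCCTTTTCAGGGCCgcccactccctctc
HIST2H4A, chr1:149833032-149833061, plus strand: GGCCCTTTTTAGGGCCgaccacttgctcat

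Positions below count from 1 at the first capital. In sarkosyl replicate 1, bases 1 to 24 held 16 sites in 16 genes, and all 16 lay at base 19, the third base past the stem-loop. Sarkosyl replicate 2 held 12 sites in this window, of which 6 lay at base 19 and 3 at bases 13 to 15. Without sarkosyl the sites lay further upstream, inside the 3′ arm of the stem. Sarkosyl-free replicate 1 had 13 of 17 sites at bases 13 to 15 and 1 at base 19. Sarkosyl-free replicate 2 had 15 of 17 at bases 13 to 15 and 1 at base 19. Over bases 13 to 20 the median position was 19 in both sarkosyl tables and 15 and 14 in the sarkosyl-free tables. The tables of the 2 buffers did not overlap in this median, and the difference was 4.5 bases. The two-sided exact permutation test over 4 tables gave p = 0.33, the smallest value that 2 tables against 2 allow.

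**Figure D1:**
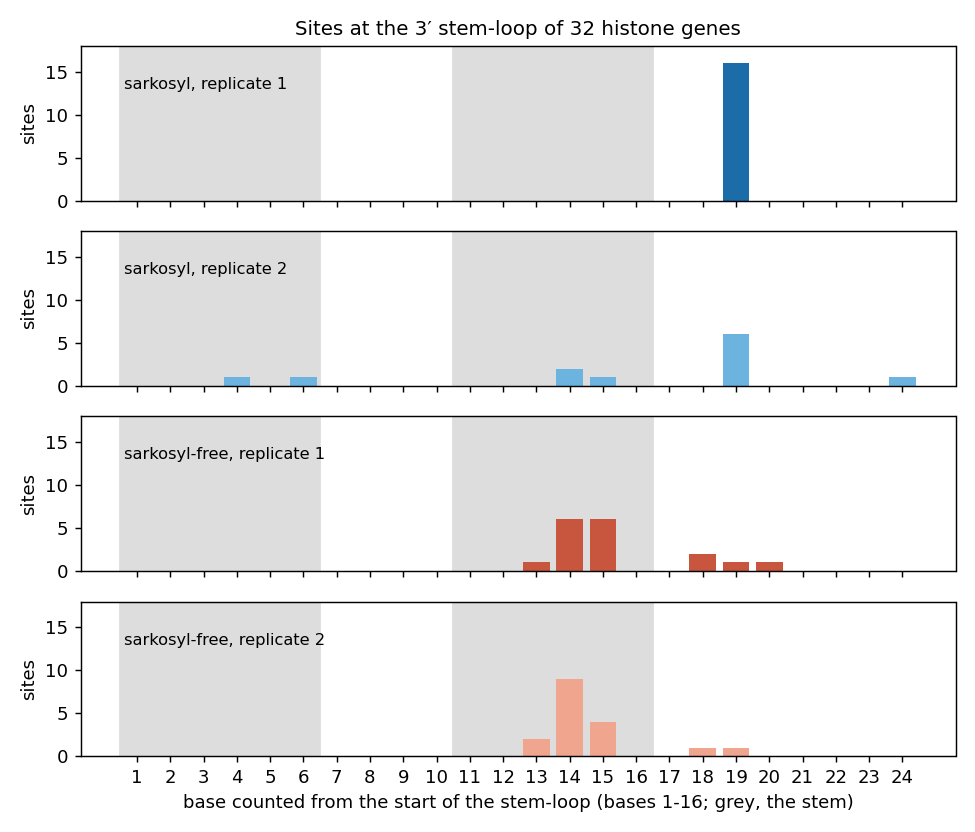
Number of sites (vertical axis) at each base of the stem-loop and the 8 bases past it (horizontal axis) over 32 histone genes, 1 panel per table, with the stem in grey. All 16 sites of sarkosyl replicate 1 sit at base 19, and 13 and 15 of the 17 sites of each sarkosyl-free table sit at bases 13 to 15.

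Of 16 members with a site at bases 13 to 20 in both buffers, all 16 had a sarkosyl site farther downstream than a sarkosyl-free site. In 11 of the 16 every sarkosyl site lay downstream of every sarkosyl-free site. The 5 exceptions were HIST1H2AG, HIST2H3A, HIST2H3C, HIST2H4A and HIST2H4B. HIST1H2BC, an H2B gene, had its site at base 19 in both sarkosyl tables (pausing time 1.85 and 1.15) and at base 14 in both others (0.560 and 2.38). HIST1H2BL, another H2B gene, had base 19 with sarkosyl (0.844 and 1.51) and bases 15 and 14 without it (0.275 and 0.431). HIST1H2BD had base 19 in sarkosyl replicate 1 (0.778), base 15 in replicate 2 (1.28) and base 14 without sarkosyl (0.870 and 1.62). HIST1H2AG, an H2A gene, had base 19 in sarkosyl replicate 1 alone (1.48) and base 15 without it (5.56 and 7.81), with a further site at base 20 in sarkosyl-free replicate 1 (6.76). In the 3 H2B genes the position separated the buffers, and in HIST1H2AG it did not because of base 20.

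HIST2H3C, an H3 gene, had base 19 with sarkosyl (1.18 and 0.895) and base 15 without it (0.419 and 1.11), but sarkosyl replicate 2 also listed base 14 (0.855). HIST1H4B, an H4 gene, had base 19 in sarkosyl replicate 1 (0.641), base 6 in replicate 2 (0.856) and bases 18 and 13 without it (12.99 and 12.05). HIST2H4A did not follow this order. It had base 19 in sarkosyl replicate 2 (0.592) and in sarkosyl-free replicate 1 (1.31), and base 18 in sarkosyl-free replicate 2 (1.84).

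The base under the site moved with the buffer as well. At base 19 of sarkosyl replicate 1, 13 sites fell on C, 2 on T and 1 on G (compare HIST1H2BC, HIST1H2BL and HIST1H2BD above). At base 19 of sarkosyl replicate 2, 5 sites fell on C and 1 on T. HIST1H2BD, with G at base 19, was listed there at base 15, a C. At bases 13 to 15, 6 sites of sarkosyl-free replicate 1 fell on C and 7 on G, and 4 and 11 in replicate 2. Over all member sites in exons the site was C in 70.0% and 63.3% with sarkosyl and in 53.6% and 22.97% without it, and G in 27.8% and 26.4%, then 45.5% and 75%. The sites of other protein-coding exons changed base in the same way, with C at 74.1% and 72.7%, then 50.8% and 22.4%, and G at 23.2% and 22.7%, then 46.3% and 74.7%. The part of the base in the shift was not tested. The 30 bases ending at the site lay in 1 GENCODE gene for 11 of the 16 sites at base 19, and for 10 and 11 of the 17 sites without sarkosyl. With those sites alone the medians were 19 and 19 against 14 and 14. In 9 of 10 genes every sarkosyl site then lay downstream of every sarkosyl-free site, with HIST1H2AG as the exception. Only transcripts were searched, and 39 members have no stem-loop in theirs, so copies there could be missed.

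The listed pausing times at the stem-loop were short, and whether each 3′ end there marks a polymerase was not tested. The medians over bases 1 to 24 were 1.02 and 0.984 with sarkosyl, against 0.870 and 1.62 in the sarkosyl-free tables, below the member medians given further on in all 4 tables. A site in this window was listed for 16 of 29, 10 of 28, 15 of 27 and 17 of 25 stem-loop members with any site, that is 55.2%, 35.7%, 55.6% and 68.0%. Other protein-coding genes with any site had one within 24 bases centred on an annotated transcript end in 1.14%, 1.42%, 2.57% and 2.08%. These genes were not matched to the members in length or density of sites, and the windows rest on different features. H2AFX, grouped here with the replication-independent histone genes although it holds the stem-loop consensus, had 12, 10, 13 and 8 sites. None lay at its stem-loop in any table.

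The 39 members with no stem-loop in their transcript model also had sites at this distance. Between 35 and 65 bases past the stop codon they held 14, 10, 16 and 14 sites, against 2, 1, 1 and 1 between 66 and 96 bases. The median distance was 54 in both sarkosyl tables and 49.5 in both sarkosyl-free tables. Except for HIST1H2BJ, their transcript models end less than 60 bases past the stop codon, so a stem-loop there could not be searched for in full.

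In the coding sequence, sites of different genes of a class fell on the same base. Of all member sites, 58.8% and 58.9% with sarkosyl and 52.8% and 58.2% without it were coding. Another 7.42% and 13.7% with sarkosyl, and 7.93% and 7.07% without it, lay over 500 bases past the stop codon. Gene and class medians include them. The first 30 coding bases held 65, 65, 64 and 42 sites, or 30.5, 30.5, 30.0 and 19.7 sites per 1000 bp of these bases. Beyond base 240 the density was 1.87, 5.34, 1.96 and 0.801 per 1000 bp. Sites were thus densest at the start of the coding sequence in all 4 tables. The median time of the first 30 bases was 1.29, 1.05, 1.14 and 0.960.

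At 25 coding bases a site was found in 4 or more genes of a class, over all tables. Of these, 10 were C in every gene, 13 were G in every gene and 2 were mixed. At 5 coding bases a site was found in 3 or more genes in each sarkosyl table and in no gene in either sarkosyl-free table: bases 36 of H2A, 156 and 299 of H2B, and 36 and 50 of H3. The reverse was found at 2, bases 25 and 35 of H2A. Bases 11 of H2A and 10 of H4 had 3 or more genes in each of the 4 tables. These positions were picked by their counts, so the counts are a description.

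Bases 35 and 36 of H2A are neighbours that held sites in different buffers. The letters are given for bases 21 to 50 of the coding sequence, with those 2 bases in capitals. At base 36, C in all of these genes, a site was listed in 10 and 7 H2A genes with sarkosyl and in 0 and 0 without it. At base 35, G in all of them, a site was listed in 0 and 0 genes with sarkosyl and in 4 and 4 without it.
HIST1H2AC, chr6:26124253-26124282, plus strand: aggaggcaaagctcGCgccaaagcgaaatc
HIST1H2AG, chr6:27133092-27133121, plus strand: gggaggcaaagcccGCgctaaggccaagac
HIST2H2AC, chr1:149886995-149887024, plus strand: aggaggcaaggcccGCgccaaggccaagtc
HIST3H2A, chr1:228457768-228457797, minus strand: gggtggcaaggcgcGCgccaaggctaagtc

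The median time at base 36 was 4.07 (0.766 to 12.7) in sarkosyl replicate 1 and 2.43 (1.37 to 12.7) in replicate 2. At base 35 it was 1.22 (0.749 to 1.499) and 1.54 (0.712 to 1.98) in the sarkosyl-free tables. The 30 bases ending at base 36 lay in 1 gene for 8 of 10 and 5 of 7 of these sites.

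In H2B genes base 156, again C, had a site in 9 and 10 genes with sarkosyl and in 0 and 0 without it. The times there were long, with medians of 5.49 (2.75 to 8.62) and 2.99 (1.75 to 7.52). At base 148, a C only 8 bases upstream, a site was listed in 3 and 5 genes with sarkosyl and in 5 and 1 without it, with medians of 0.869, 1.20, 0.599 and 2.00. Capitals mark bases 148 and 156 in coding bases 137 to 166.
HIST1H2BC, chr6:26123739-26123768, minus strand: tgaaacaggtcCatcccgaCactggcatct
HIST1H2BN, chr6:27838798-27838827, plus strand: tgaagcaggtcCaccccgaCaccggtatct
HIST2H2BE, chr1:149886475-149886504, minus strand: tgaagcaggtcCaccccgaCaccggcatct
These genes are nearly identical here. Only 3 of the 9 and 3 of the 10 sites at base 156 had 30 bases found in 1 gene, and how reads of copies were placed was not stated.

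The 2 bases with sites in 3 or more genes in each of the 4 tables lay close to the start codon. Below that count, bases farther along also had sites in all 4 tables, such as base 110 of H4 (4, 7, 2 and 4 genes). Base 11 of H2A, a G, had a site in 8, 5, 5 and 7 genes, with medians of 1.83, 1.41, 0.909 and 4.93. Base 10 of H4 had a site in 6, 3, 3 and 3 genes, with medians of 0.888, 0.954, 0.464 and 0.235. The shortest member time of sarkosyl-free replicate 2, 0.142 in HIST2H4B, was 1 base upstream of it, at base 9. Capitals mark base 11 and base 10.
HIST1H2AC, chr6:26124233-26124262, plus strand: atgtctggacGtggtaagcaaggaggcaaa
HIST1H2AM, chr6:27893120-27893149, minus strand: atgtctggacGtggcaagcagggcggcaag
HIST1H4B, chr6:26027223-26027252, minus strand: atgtctggtCgcggcaaaggcggtaaaggt
HIST1H4K, chr6:27831498-27831527, minus strand: atgtctggcCgcggcaaaggcgggaagggt
The longest member time of all, 166.667 in sarkosyl-free replicate 2, lay at base 91 of HIST1H2AC. At this base, a G, that table had a site in 6 H2A genes with a median of 22.1, against 1 gene in sarkosyl-free replicate 1 (14.5), 1 in sarkosyl replicate 2 (1.20) and 0 in sarkosyl replicate 1.

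**Figure D2:**
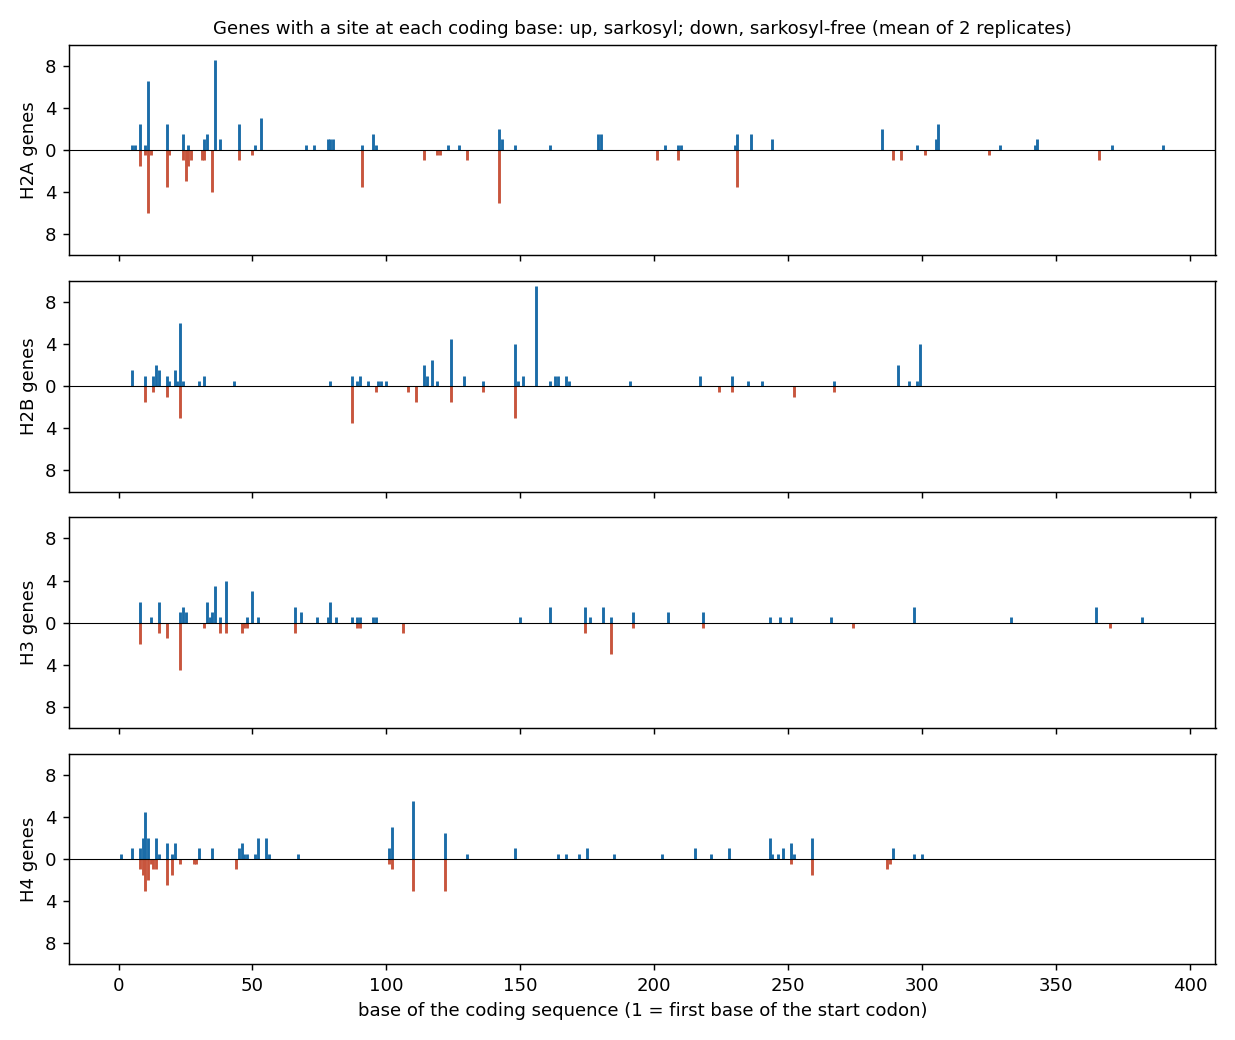
Number of H2A, H2B, H3 and H4 genes with a site (vertical axis, mean of 2 replicates) at each base of the coding sequence (horizontal axis), upward for sarkosyl and downward for sarkosyl-free. Bases 36 of H2A and 156 of H2B have upward lines only, and base 11 of H2A has lines both ways.

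Against the other protein-coding genes, histone pausing times were short without sarkosyl, while with sarkosyl the replicates disagreed. The median member time was 2.00 and 1.16 with sarkosyl, against 1.39 and 3.47 in the sarkosyl-free tables. The medians over sites of the other protein-coding genes were 1.53, 1.38, 2.38 and 9.01. The difference of median log2 pausing time, histone minus other, was 0.38 and -0.25 with sarkosyl, a mean of 0.06 ± 0.45 (SD, n = 2). Without sarkosyl it was -0.77 and -1.38, a mean of -1.07 ± 0.43 (SD, n = 2). The buffers differed by 1.14 with no overlap between tables (two-sided exact permutation test, p = 0.33, the smallest possible). This buffer difference was 0.14 among the more certain 50% of sites (same exact permutation test, p = 0.67) and -0.36, in the other direction, against other single-exon genes (p = 1). The sarkosyl-free difference was -0.02 ± 0.10 (SD, n = 2) among the more certain sites, which were ranked in each table by the ratio of the quartiles of the rate. Against other single-exon genes it was 0.57 ± 2.14 (SD, n = 2), and -0.91 ± 0.29 (SD, n = 2) once mitochondrial genes were left out of these.

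Among the classes, H2B had the longest median in sarkosyl replicate 1, 3.91, and in replicate 2, 1.33. Without sarkosyl its medians were 1.05 and 2.38. H2A had 1.83 and 1.16 with sarkosyl and 1.33 and 3.68 without it, H3 had 1.80 and 1.02, then 2.05 and 2.04, and H4 had 1.64 and 1.18, then 1.33 and 7.14. H1, the linker histone class, rested on 3, 3, 2 and 2 genes and had 1.74, 1.09, 3.80 and 7.47. No order of the classes was shared by all 4 tables. The HIST1 and HIST2 clusters were close in every table, at 1.95 and 2.04, 1.17 and 1.14, 1.43 and 1.37, and 3.27 and 3.20. All 12 HIST2 genes had a site in 3 tables and 11 in sarkosyl-free replicate 2, against 38, 38, 35 and 31 of the 55 HIST1 genes. HIST3 held 10, 12, 9 and 4 sites and HIST4H4 held 7, 7, 6 and 5.

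**Figure D3:**
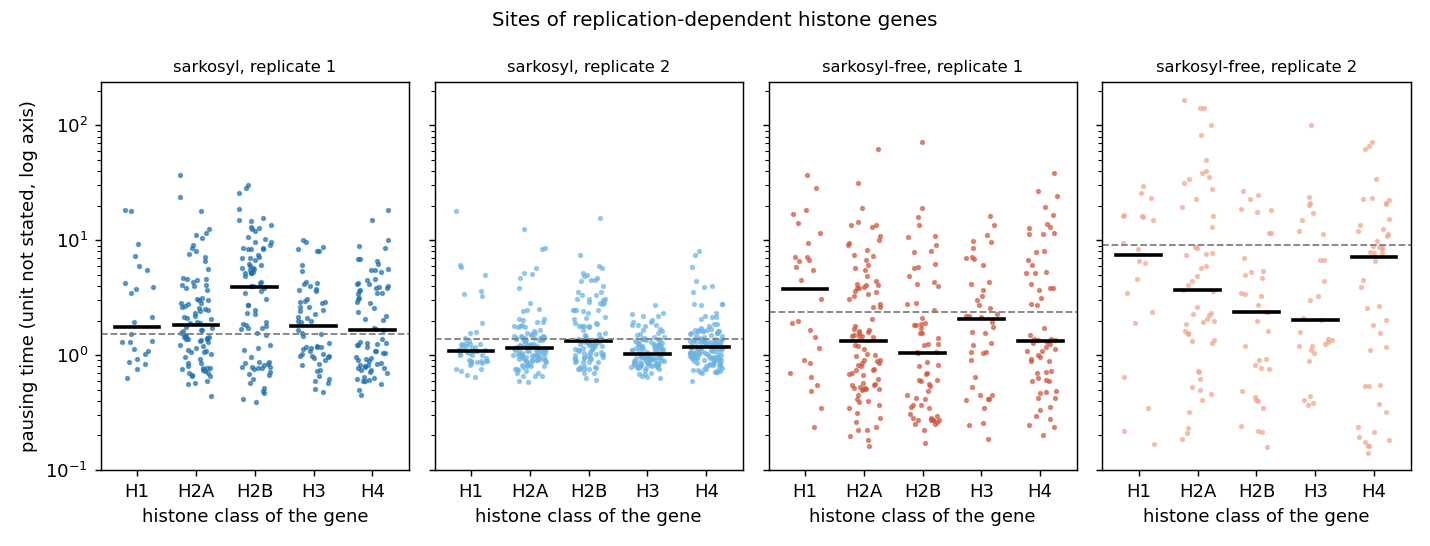
Pausing time of every member site (vertical log axis, unit not stated) by histone class (horizontal axis), 1 panel per table, with class medians as black bars and the median of the other protein-coding genes as a dashed line. The H2B bar stands highest in sarkosyl replicate 1, at 3.91, and all class bars lie below the dashed line in sarkosyl-free replicate 2.

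Gene by gene, the 24 members with most sites among those with a site in every table showed wide spread without sarkosyl. Values are the median pausing time of a gene's sites, replicate 1 then replicate 2. Of the H1 genes, HIST1H1C had 1.34 and 1.12 with sarkosyl and 1.97 and 8.89 without it. HIST1H1E had 2.70 and 1.06, then 4.55 and 7.47. Both were longer without sarkosyl in both tables.

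Among H2A genes, HIST1H2AC had 1.66 and 1.18 with sarkosyl and 1.48 and 34.8 without it. HIST1H2AD had 1.53 and 1.04, then 0.316 and 4.10. HIST1H2AG had 1.91 and 1.17, then 1.81 and 5.99. In these 3 the sarkosyl-free tables lay far apart, with replicate 2 the highest of the 4. HIST1H2AH had 0.848 and 1.06, then 0.898 and 2.32. HIST2H2AC had 4.57 and 1.30, then 0.981 and 2.92. The duplicated genes HIST2H2AA3 and HIST2H2AA4 had 2.05 and 2.16 in sarkosyl replicate 1, 1.19 and 1.12 in replicate 2, 2.79 and 3.29 in sarkosyl-free replicate 1 and 2.30 and 2.12 in replicate 2. The copies were near each other in every table, and reads may have been shared between them.

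Among H2B genes, HIST1H2BC had 3.46 and 1.30 with sarkosyl and 1.34 and 0.778 without it. HIST1H2BD had 1.11 and 1.25, then 0.689 and 0.914. HIST1H2BD was the one H2B gene of these 6 in which both sarkosyl values exceeded both others. HIST1H2BJ had 4.75 and 1.81, then 1.75 and 2.00. HIST1H2BK had 6.25 and 1.74, then 4.88 and 3.07. HIST1H2BN had 7.19 and 1.31, then 1.26 and 12.6. HIST2H2BE, an H2B gene of the HIST2 cluster, had 1.52 and 1.34, then 0.525 and 3.06. In these 4 genes the buffers overlapped.

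Among H3 genes, HIST1H3B had 2.62 and 1.15, then 1.76 and 4.41. HIST2H3A had 1.17 and 0.973, then 1.71 and 4.87. HIST2H3C, its near-identical copy, had 1.18 and 1.003, then 2.19 and 1.59. Both copies were longer without sarkosyl in both tables. HIST2H3D had 2.44 and 0.923, then 0.911 and 1.19. Among H4 genes, HIST1H4B had 0.671 and 0.967, then 0.886 and 6.11. HIST1H4E had 3.05 and 1.11, then 3.14 and 0.545, with the sarkosyl-free tables on either side of the others. HIST2H4A had 2.11 and 1.23, then 1.33 and 9.82. Its copy HIST2H4B had 2.57 and 1.19, then 1.37 and 7.69. HIST4H4 had 2.86 and 1.88, then 2.68 and 8.47.

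**Figure D4:**
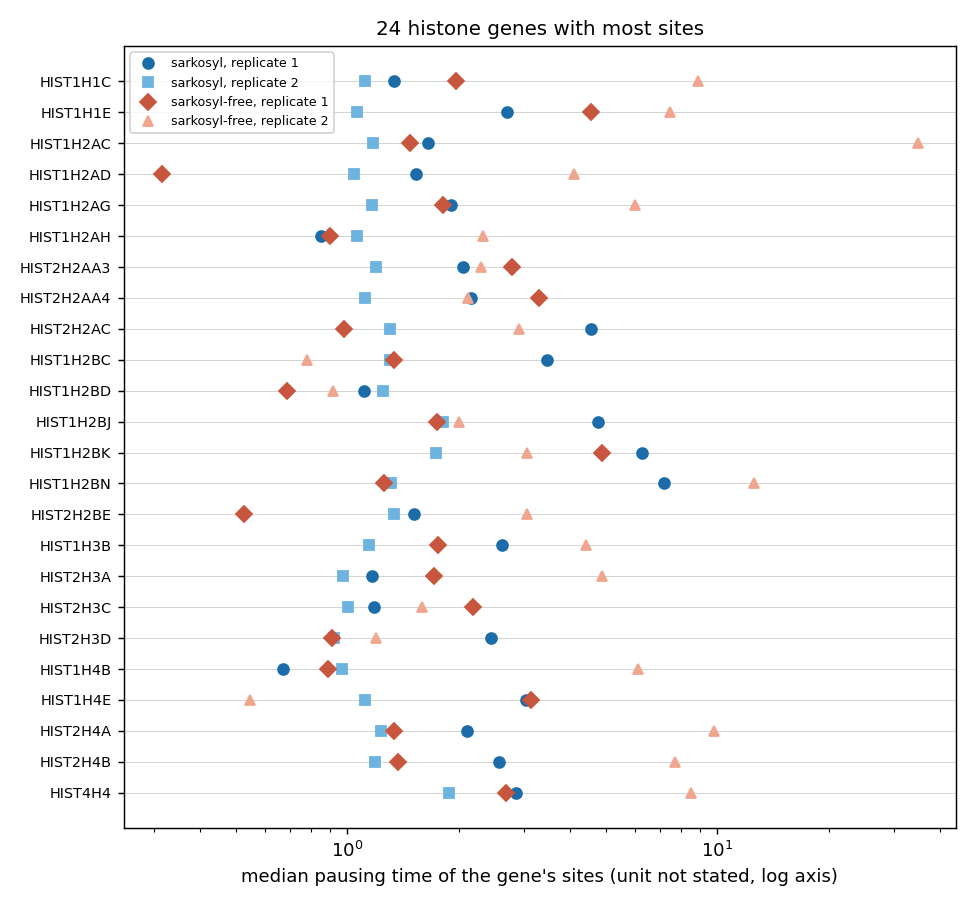
Median pausing time of a gene's sites (horizontal log axis, unit not stated) for 24 histone genes (vertical axis), with 1 marker per table. Sarkosyl replicate 2 stays between 0.923 and 1.88, while sarkosyl-free replicate 2 runs from 0.545 in HIST1H4E to 34.8 in HIST1H2AC.

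To compare the buffers gene by gene, limma was fitted to the median log2 pausing time of 5142 protein-coding genes with a site in every table, each table centred on its median over these genes. None passed an adjusted p of 0.05 (Benjamini-Hochberg), 0% of the genes tested, and 451 (8.77%) had an unadjusted p under 0.05. In simulated data with the replicate spread of these tables, 0 of 200 genes changed by 2 log2 units passed. Among the 44 members tested 0 passed and 7 had an unadjusted p under 0.05. All 7 were higher with sarkosyl, as were 343 of the 451 over all genes tested. Relative to the centre, 36 of the 44 were higher with sarkosyl, with a median log2 difference of 1.13, against 0.23 over all genes tested. Without centring 19 of 44 were higher, with a median of -0.39 against -1.29 over all genes, so the direction for the members holds relative to other genes only. HIST1H2BL had gene medians of 2.75 and 2.44 with sarkosyl and 0.323 and 0.431 without it, and the buffers did not overlap. These rest on 5, 5, 4 and 1 sites, and the 1 is the stem-loop site at base 14 given above. The log2 difference of HIST1H2BL was 4.32 (SE 0.82, limma adjusted p = 0.540). HIST1H2BO had 5.62 and 0.915, then 0.296 and 1.01, with a log2 difference of 3.59 (SE 1.02, limma adjusted p = 0.540). HIST1H4K, with 0.560 and 1.09, then 0.280 and 0.318, had 2.89 (SE 0.92, limma adjusted p = 0.540). The values of HIST1H4K rest on 1, 2, 1 and 1 sites, and 100% of its coding 30-base stretches lay in more than 1 gene. The other 4 with an unadjusted p under 0.05 were HIST1H2AD, HIST1H2BC, HIST1H2BD and HIST1H4D. With sarkosyl-free replicate 1 left out, the median log2 difference was 1.73 over the 44 members and 0.19 over all genes tested. HIST1H2BL then had 5.07 and HIST1H4D had 3.72. The lone sarkosyl-free table is then assumed to vary like the sarkosyl tables.

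Members had 940 distinct sites, of which 650 were in 1 table and 33 in all 4. The sarkosyl tables shared 173 sites, 51.3% and 32.6% of each, against 37.1% and 37.8% over all sites of the tables, and Spearman's rho of the member times was 0.81. The sarkosyl-free tables shared 100, 34.5% and 54.3% of each, against 21.04% and 33.3% over all sites, with a rho of 0.64. Between buffers 54 to 89 sites were shared, and rho ran from -0.06 to 0.50. These sites share libraries and, in part, sequence, so the correlations are descriptions.

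Over 2967 sites found in all tables, limma called 0 (0%) at an adjusted p of 0.05, and 689 (23.2%) had an unadjusted p under 0.05. In simulated data with the replicate spread of these tables, 0 of 200 sites changed by 2 log2 units were called. Of the 33 member sites 0 were called, and 8 had an unadjusted p under 0.05. Of these 8, 2 were higher with sarkosyl, against 357 of the 689 over all sites. Relative to the centre, 22 of the 33 were higher with sarkosyl, with a median log2 difference of 0.87, against 0.22 over all sites tested. HIST2H3C and HIST2H3A had the lowest unadjusted p, at base 8 of their coding sequences, a G. At chr1:149841150 in HIST2H3C the times were 1.56 and 1.26 with sarkosyl, against 9.80 and 21.3 in the sarkosyl-free tables. The log2 difference was -3.23 (SE 0.77, limma adjusted p = 0.155). At chr1:149852662 in HIST2H3A they were 1.53 and 1.37, then 6.99 and 23.8, with a log2 difference of -3.02 (SE 0.86, limma adjusted p = 0.173). The buffers did not overlap at either site. Both share their 30 bases, shown for HIST2H3C with the site in capitals, so they are not independent.
HIST2H3C, base 8: ggttcgctatggcccGtactaagcagactg

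A pair of sites just before these start codons behaved alike. At chr1:149841159 in HIST2H3C the times were 0.952 and 0.910, then 2.19 and 17.2, and at chr1:149852653 in HIST2H3A they were 0.824 and 0.942, then 2.20 and 20.4. The site before the start codon of HIST2H2AA3, chr1:149842709, had 0.661 and 0.902, then 2.79 and 3.68. Its copy in HIST2H2AA4, chr1:149851103, had 0.567 and 0.801, then 3.92 and 2.31. All 4 were shorter with sarkosyl in both tables.

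HIST1H2AC at chr6:26124243, base 11, had 2.35 and 2.06 with sarkosyl, against 6.13 and 50 in the sarkosyl-free tables. A site inside the HIST1H3E span but upstream of its coding sequence, chr6:26224295, had 1.03 and 1.25, then 3.70 and 6.80. Both were shorter with sarkosyl. Of the 12 sites with the lowest p, the other 4 were longer with sarkosyl. HIST1H1C at chr6:26056415, base 14 of its coding sequence, had 1.29 and 1.05, then 0.344 and 0.168 (log2 difference 2.41, SE 0.79, limma adjusted p = 0.173). HIST3H2A at chr1:228457843, before its start codon, had 0.694 and 1.02, then 0.283 and 0.209. HIST1H4E at chr6:26204754, base 110, had 4.22 and 1.66, then 0.965 and 0.545, and HIST1H2BD at chr6:26158192, base 23, had 2.72 and 1.23, then 0.797 and 0.212. With sarkosyl-free replicate 1 left out, the median log2 difference was 0.51 over the 33 member sites and 0.35 over all sites tested. With sarkosyl-free replicate 2 left out these were 0.71 and 0.14.

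The other extremes of the members were as follows. In sarkosyl replicate 1 the shortest time, 0.387, lay at base 15 of HIST1H2BC, and the longest, 37.0, lay 225 bases past the stop codon of HIST1H2AG. In sarkosyl replicate 2 they were 0.587 at base 70 of HIST1H2AG and 17.9 at base 15 of HIST1H1E. In sarkosyl-free replicate 1 they were 0.163 at base 10 of HIST1H2AD and 71.4 at base 108 of HIST1H2BK. The shortest times thus lay in coding sequence in all 4 tables.

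The share of member sites in the 500 bp past the annotated gene end was 13.4% and 12.2% with sarkosyl, against 16.2% and 15.2% in the sarkosyl-free tables. For members of at most 3000 bp it was 18.6% and 17.7%, then 22.3% and 20.97%, above the share among other protein-coding genes of at most 3000 bp in each table. In those it was 15.6%, 15.3%, 15.97% and 16.2%. For the 33 members with a coding-only model, the 500 bp begin right past the stop codon. The comparator was not matched to the median member length of 509 bp. The effect of either on the share was not tested. Over members of all lengths the share was lower by 2.92 percentage points with sarkosyl, and the tables of the buffers did not overlap (two-sided exact permutation test, p = 0.33, the smallest possible). With 1000 bp the same difference was 1.06 points in the same direction (two-sided exact permutation test, p = 0.67). Between 100 and 400 bases past the stop codon few sites were listed in sarkosyl-free replicate 2, which has the fewest member sites (184). In the 3 stretches of 100 bases there it listed 1, 5 and 1 sites. Sarkosyl replicate 1 listed 11, 22 and 12, sarkosyl replicate 2 listed 18, 32 and 20, and sarkosyl-free replicate 1 listed 12, 22 and 11. In the next 100 bases sarkosyl-free replicate 2 listed 8 sites, as many as sarkosyl replicate 1. Sarkosyl replicate 2 and sarkosyl-free replicate 1 listed 15 each.

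Near-identical copies limit which member a read belongs to. Only transcript models were searched for copies, so copies outside a model could be missed. Where the 30 bases ending at a site could be read from a transcript, they lay in more than 1 gene for 46.2%, 53.8%, 41.2% and 47.2% of member sites, and in up to 13 genes. Members with a site in all 4 tables had a median of 38.4% of their coding 30-base stretches in more than 1 gene, against 2.77% for the 14 members with no site. Median times were close for sites in 1 gene and in more, at 2.37 and 2.78, 1.19 and 1.17, 1.64 and 1.63, and 4.12 and 3.94. The pair HIST2H3A and HIST2H3C had 12 of 13 sites at the same distance in sarkosyl replicate 1, with a median absolute log2 difference of 0.28 between copies.

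Genes that work with these histones were mostly seen. Of 13 symbols of replication-independent histone genes, matched to 14 models since H2BFS has a pair, 12, 13, 12 and 11 had a site, with medians of 2.22, 1.36, 3.79 and 6.37 over sites. H3F3B, which encodes H3.3, had gene medians of 2.60, 1.15, 4.93 and 5.97, and H2AFZ, which encodes H2A.Z, had 4.33, 1.77, 3.69 and 8.55. H2AFX had 2.02, 1.33, 0.503 and 2.43, and H1FX had 1.20, 1.002, 3.67 and 2.25. Of 37 genes of histone transcription and 3′ processing, 34, 33, 30 and 29 had a site. Their medians were 1.55, 1.49, 2.79 and 11.2. CASP8AP2, a factor of histone locus bodies, had 1.55, 1.15, 3.48 and 7.53, and SNRPB, a core snRNP protein, had 2.42, 1.78, 2.72 and 14.5. Of 7 markers of HEK293 cells 2, 2, 3 and 2 had a site, and of 7 haematopoietic markers 1, 2, 0 and 0. The haematopoietic genes were listed because the design text of the study names the KBM7 line. In sarkosyl replicate 2 both lists had 2 genes with a site, so these counts do not settle the line.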

How the data were processed

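Run-on libraries of HEK293 cells were grouped by buffer and replicate number from the labels, and the Trp library was not analysed here. Per the submitters' processing notes, cutadapt 1.14, HISAT2 2.1.0, SAMtools and bedtools were used with hg38; their settings, and how multiply mapping reads were placed, are not given in the sources used here. The deposited tables give, per site, the quartiles and median of a rate, rounded by the authors to 3 decimals, and a pausing time that equals 1 divided by the median rate. Long times are therefore coarse. The files hold no read counts, so depth and counting error are unknown, and 0 value columns were left unmapped.

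Sites were assigned to GENCODE release 29 genes (GRCh38) on the same strand, up to 500 bp past the end. Members and lists were chosen with earlier results of these data known. Gene and site differences were tested with limma 3.58.1 in R 4.3.3 on log2 pausing times, centred per table, with Benjamini-Hochberg adjustment at 0.05. The code was tested on simulated data, in part with the replicate spread of these tables. With that spread, 124 of 200 genes and 106 of 200 sites changed by 4 log2 units passed. At 2 log2 units 0 of 200 genes and 0 of 200 sites passed. Single values were compared by exact permutation over 4 tables. Other work used Python 3.11.15, numpy 2.4.6 and pandas 2.3.3. Genes named with values are the 24 with most sites among those with a site in every table, the 12 shared sites with the lowest unadjusted p, and the extremes of each table. Coding and stem-loop bases, and the genes shown for them, were picked after their values were seen. No genome sequence was used here, so a planned search of the genome for each site's 30 bases was replaced by a search of the GENCODE transcripts. RefSeq gene starts were matched by symbol and overlap. Alternatives covered the comparator, certainty of a site, duplicated copies, normalization, the replicate block and leaving out each table.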

Additional observations from a re-analysis of the deposited data

Results flagged for a closer look

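Sites outside the rule for members were seen in 2 places. The 33 members whose model covers only the coding sequence had 11 and 15 sites with sarkosyl, and 11 and 4 without it, in the 100 bp before their start codon. These lay in 6, 7, 6 and 2 genes, and no comparison above uses them. On the opposite strand inside member spans, and outside any member on that strand, 11 and 12 sites were listed with sarkosyl, with median pausing times of 1.80 and 1.28. Without sarkosyl 3 and 1 were listed, at or under the limit of 3 used for a count of 0. Whether the buffers differ in these counts was not tested.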

How the results depend on the processing

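The sarkosyl-free difference between histone and other protein-coding genes, -1.07 on the log2 scale, was 0.57 against other single-exon genes and -0.017 among the more certain 50% of sites, and the buffer difference of 1.14 was -0.36 against other single-exon genes. Without mitochondrial genes in that comparator, an alternative chosen after seeing the data, these were -0.91 and 0.81. The cause was not tested. Sites called by limma numbered 158 with quantile normalization and 161 with the replicate block, 0 of them in members in both, and 0 to 1597 when 1 table was left out. Genes called numbered 0 with the replicate block and 0 to 235 when 1 table was left out. Same-numbered tables did not deviate together (correlation 0.0134 over sites and 0.0278 over genes), so the numbers were not taken as pairs. Leaving out 1 table gave a stem-loop shift of 4 to 5 bases and a buffer difference of 0.82 to 1.46. For the 7 genes and 8 sites of members with an unadjusted p under 0.05, no alternative value turned its direction. Of these values 126 stayed on their side of the threshold, and the others came from fits with a sarkosyl-free table left out. Other named genes and sites were not followed in this way. Without centring, 19 of the 44 members tested were higher with sarkosyl, against 36 in the main fit. For the share past the gene end, restricting sites to 30 bases found in 1 gene gave no value, since those sites lie outside exons. With 2 tables a buffer no exact test could pass 0.05, and unknown depth limits every count of sites.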
